A study of Mus musculus with 3 samples.

Results

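The 10 genes described here encode secreted signals of the transforming growth factor beta (TGF-beta) family, proteins that hold those signals back, and a matrix protein they induce. They were chosen by name, with earlier results of these data known. They are the ligand genes Inhba, Inhbb, Nodal, Bmp4 and Tgfb1, the antagonist genes Lefty1, Lefty2, Fst and Grem1, and Tgfbi. All 10 were on the array, read by 11 probes, among 20284 genes that could be named there. Each was well above background on at least 1 array, and 8 of them on all 3 arrays. RNA came from mouse embryonic stem cells of 3 genotypes with 1 array each: wildtype, Pcgf6KO, whose Pcgf6 gene was targeted with Cas9, and Pcgf6KO+ Pcgf6_flag, established from edited cells by lentiviral infection to carry Flag-tagged Pcgf6. The cells of all 3 genotypes were labelled male and grown with leukemia inhibitory factor and serum on mouse embryonic fibroblasts, feeder cells that mitomycin-C had stopped from dividing, so fibroblast RNA can be part of each sample. The sources used here do not say whether an edited line is a single clone or which promoter drives the tagged gene. Pcgf6 is the defining subunit of PRC1.6, a Polycomb complex that represses germline genes in stem cells.

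Ligands of this family bind pairs of receptor kinases, which phosphorylate Smad transcription factors. Activins, Nodal and TGF-beta act through Smad2 and Smad3, whereas bone morphogenetic proteins (BMPs) act through Smad1 and Smad5. Embryonic stem cells make Nodal and its feedback inhibitors Lefty1 and Lefty2, and BMP signals together with leukemia inhibitory factor help to keep mouse stem cells undifferentiated. Fibroblasts are a known source of activin A, the dimer of the Inhba product, and of the BMP antagonist Gremlin.

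Cy3-labelled RNA was read on a 1-colour array of 55681 probes. A level below is log2 of a probe's processed signal minus the 75th percentile of its array, so a level of 0 means a signal equal to that percentile, and a difference of 1 means 2-fold. Levels of different genes come from different probes and are not set against each other. Between 60.7% and 66.0% of probes were well above background, and the lowest such signal was 52.7 on the wildtype array, 53.4 on the Pcgf6KO array and 103 on the flag-labelled array, as the array of Pcgf6KO+ Pcgf6_flag is called here. Slide 1 carried wildtype and Pcgf6KO and slide 2 the remaining array, so genotype and slide cannot be told apart wherever slide 2 is compared. As each genotype has a single array, differences come without a replicate check or a p-value, and precision is limited by the number of arrays. A difference of at least 2-fold was counted as called. Where a probe was not well above background on 1 of 2 arrays, the difference is a bound against the lowest signal well above background there, written "at least N-fold". The Pcgf6 probe read levels of 1.87, 0.84 and 0.43 on the wildtype, Pcgf6KO and flag-labelled array, so it was not higher where Pcgf6 was labelled as re-expressed. The position of that probe relative to the edit and to the lentiviral insert is not known here, so its level settles neither label, and each direction drawn from the flag-labelled array rests on its label.

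The 250 bases upstream of 4 of these genes are printed because their levels differed in unlike ways: Inhba and Grem1 were low on both edited arrays, Inhbb was lowest in Pcgf6KO, and Nodal differed least of the 4. Sequences are from RefSeq on GRCm38.p6, matched for 7 of the 10 genes. They are written 5′ to 3′ up to the base before the annotated start, with each CpG, the dinucleotide that DNA methylation and CpG-island Polycomb binding depend on, in capitals.
Inhba, chr13:16011601-16011850, plus strand: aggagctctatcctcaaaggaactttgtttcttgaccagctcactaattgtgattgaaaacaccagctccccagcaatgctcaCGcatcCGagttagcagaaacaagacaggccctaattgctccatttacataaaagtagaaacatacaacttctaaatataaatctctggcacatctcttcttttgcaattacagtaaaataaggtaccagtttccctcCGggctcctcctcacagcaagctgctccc
Grem1, chr2:113758649-113758898, minus strand: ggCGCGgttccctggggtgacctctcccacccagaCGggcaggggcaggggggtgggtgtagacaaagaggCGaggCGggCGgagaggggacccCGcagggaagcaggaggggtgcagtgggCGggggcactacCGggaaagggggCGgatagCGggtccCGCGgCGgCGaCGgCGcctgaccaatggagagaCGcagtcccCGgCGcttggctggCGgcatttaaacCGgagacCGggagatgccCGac
Inhbb, chr1:119422249-119422498, minus strand: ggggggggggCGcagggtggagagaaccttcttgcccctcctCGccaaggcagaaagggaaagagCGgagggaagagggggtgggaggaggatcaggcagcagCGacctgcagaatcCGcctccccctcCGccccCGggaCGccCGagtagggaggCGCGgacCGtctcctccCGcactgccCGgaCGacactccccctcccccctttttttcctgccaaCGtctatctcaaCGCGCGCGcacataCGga
Nodal, chr10:61417722-61417971, plus strand: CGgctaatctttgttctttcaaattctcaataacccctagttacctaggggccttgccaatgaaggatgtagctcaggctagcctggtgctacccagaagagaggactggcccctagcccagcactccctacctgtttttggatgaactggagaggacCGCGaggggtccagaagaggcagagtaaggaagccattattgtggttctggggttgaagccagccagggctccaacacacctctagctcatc
The window held 3 CpGs for Inhba, 24 for Grem1, 21 for Inhbb and 3 for Nodal, against a median of 6 over 27025 promoters of that length. As many CpGs as in Grem1 were found in 11.7% of those promoters, and as few as in Inhba in 38.1%. Inhba and Grem1, both lowest on the flag-labelled array, thus have windows of unlike composition, with 43.2% and 72.0% G and C. Both strands were searched for CACGTG, the E-box read by Mga and Max of PRC1.6, for TTCCCGC, an E2F-type site, for TGANTCA, bound by AP-1, for GTCTAGAC, the Smad palindrome, and for TATAAA. Of the 4 windows printed, only Inhba held any of these, a TATAAA beginning 91 bases upstream of the start, and 13.0% of all promoters hold that word. Bmp4 held a CACGTG beginning 188 bases upstream, a word found in 6.05% of promoters.

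The comparison of Pcgf6KO with wildtype addresses how the Pcgf6 edit bears on these transcripts in whole cultures. Inhba, Grem1 and Inhbb were 26.2-fold, 13.3-fold and 3.30-fold lower in Pcgf6KO, and none of the 10 genes was 2-fold higher. Thus 3 of 10 were lower and 0 higher, whereas over all 15879 genes tested 3.56% were at least 2-fold lower and 6.60% at least 2-fold higher, 10.2% in all. Because the genes and lists were chosen with earlier results known, such shares here and below describe these arrays and are not a test. The median difference of the 10 was -0.46, beside -0.03 over all genes measured on both arrays. Nodal, Lefty1, Lefty2, Bmp4, Tgfb1, Fst and Tgfbi differed by less than 2-fold, from -0.63 for Nodal to 0.96 for Tgfbi. With a threshold of 1.5-fold, Nodal and Fst joined the lower genes, making 5, and Tgfbi was the 1 higher gene, where 8.51% of all genes were lower and 12.9% higher.

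The flag-labelled array was then compared with each of the others. Against Pcgf6KO, Inhba was at least 9.58-fold lower, Tgfbi 9.05-fold, Fst 2.43-fold and Grem1 at least 2.25-fold, while Inhbb was 2.15-fold higher. That is 4 of 10 lower and 1 higher, where 1579 of 15757 genes, 10%, were lower and 6.18% higher, 16.2% in all. At 3-fold 2 of the 10, Inhba and Tgfbi, were lower and 0 higher, where 4.94% of genes were lower and 1.99% higher. Against wildtype the same 4 genes were lower, Inhba at least 251-fold, Grem1 at least 30.04-fold, Tgfbi 4.66-fold and Fst 3.70-fold, and 0 were higher. With normexp, another background correction, Inhba and Grem1 differed from wildtype by -7.18 and -4.06 in log2 units, smaller than these bounds of -7.97 and -4.91. Against Pcgf6KO Inhba differed by -2.56 with normexp, also smaller than its bound there of -3.26. Over all 15587 genes tested on the flag-labelled array against wildtype 6.28% were lower and 5.83% higher, 12.1% in all. The 3 comparisons share arrays and are not independent of each other.

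**Figure D1:**
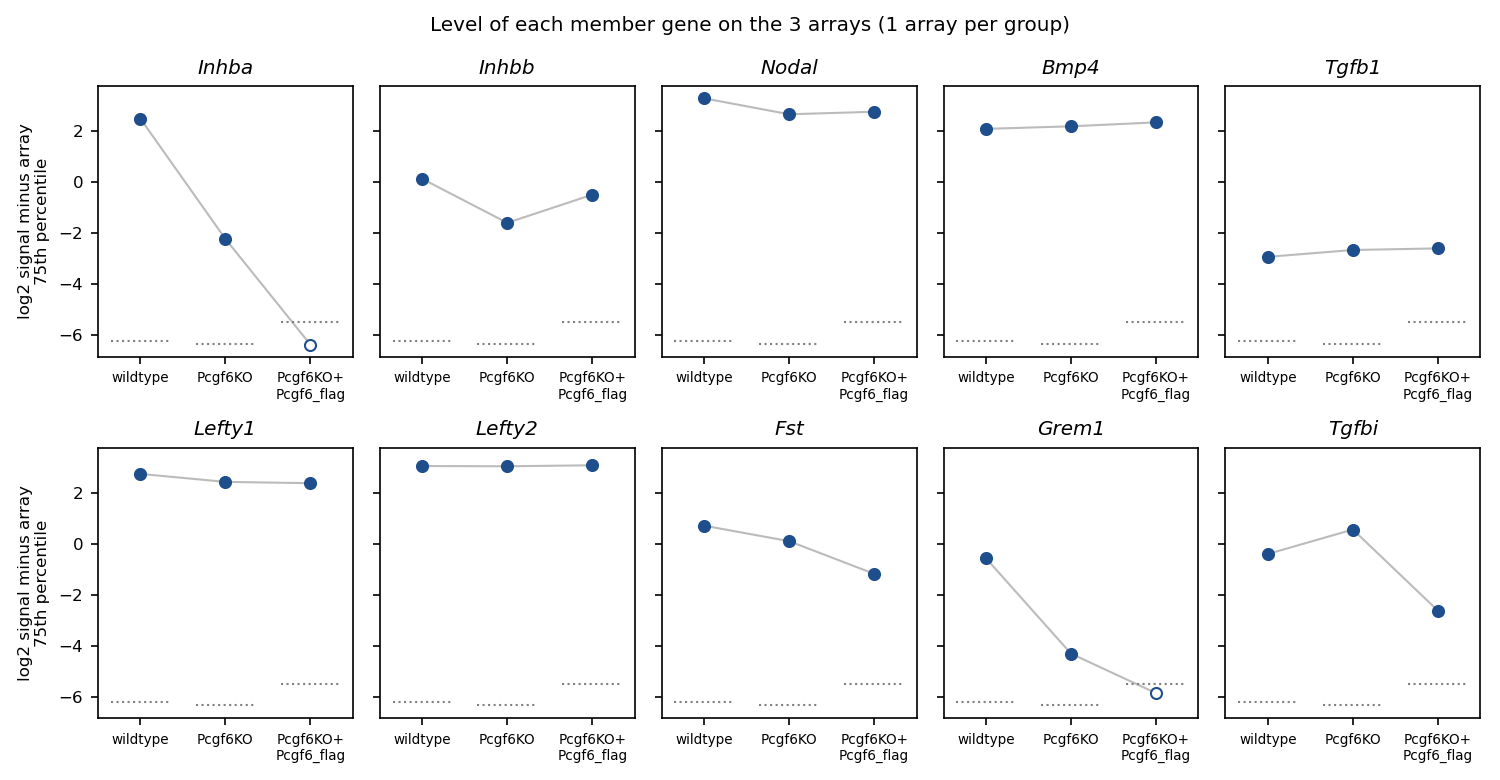
Level of each gene on the wildtype, Pcgf6KO and flag-labelled (Pcgf6KO+ Pcgf6_flag) arrays, 1 array per group, in log2 units relative to the 75th percentile of the array. Filled points are well above background, open points are not, and dotted lines mark the lowest level well above background on each array. Inhba runs from 2.49 down past that line, whereas Lefty2 stays between 3.03 and 3.07.

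Among the ligand genes, Inhba (probe A_51_P239750, NM_008380) varied most. Its processed signal was 21973 on the wildtype array, 919 on the Pcgf6KO array and 56.0 on the flag-labelled array, where it was not well above background. The corresponding levels were 2.49, -2.22 and -6.37, each step down being much larger than the spread of repeated spots, whose difference between 2 arrays had an SD of 0.096 to 0.115 in log2 units. With genes not measured on both arrays taken at their bound, 15 of 15879 had a lower difference than Inhba in Pcgf6KO against wildtype. Inhba was therefore ordered wildtype, Pcgf6KO, flag-labelled, with no neighbours within the spot spread.

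Inhbb, the beta B subunit that forms activin B, followed another order. The 3 levels, all well above background, were 0.13 for wildtype, -1.60 for Pcgf6KO and -0.49 for the flag-labelled array. It was the one gene of the 10 that was at least 2-fold lower in Pcgf6KO and at least 2-fold higher again on the flag-labelled array, where it stayed 1.54-fold below wildtype. Both of these comparisons contain the same Pcgf6KO array.

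Nodal, the ligand that drives mesendoderm and anterior-posterior patterning in the embryo, had levels of 3.28, 2.66 and 2.76 on the wildtype, Pcgf6KO and flag-labelled arrays. It was 1.54-fold lower in Pcgf6KO and 1.44-fold lower on the flag-labelled array than in wildtype, both beyond 2 SDs of repeated spots. The 2 edited arrays differed by 0.10, within that spread. Genes nearest to Nodal in both differences from wildtype were Rps6ka4, with differences of -0.61 and -0.55, and Gpt2, with -0.63 and -0.50. They were taken from 13168 bright genes over only 3 arrays, at Euclidean distances of 0.026 and 0.027, and the likeness is a description of those arrays.

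Bmp4, the stem cell BMP ligand, was read by a pair of probes. The brighter (A_55_P2154387) gave levels of 2.09, 2.19 and 2.34 on the wildtype, Pcgf6KO and flag-labelled arrays, so that neighbours in this order differed by less than 2 SDs of repeated spots. The dimmer (A_55_P1959022) gave -3.43, -2.76 and -3.30, with Pcgf6KO higher than wildtype by 0.67. Both are assigned to NM_007554, and neither passed 2-fold in any comparison, but they disagreed in direction between Pcgf6KO and the flag-labelled array, with 0.15 and -0.54.

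Tgfb1, the ligand best known from fibrosis and immune regulation, was read by 1 probe (A_51_P390715) spotted 10 times on each array, which gives a direct view of the spread between spots. Wildtype spots averaged -2.93 ± 0.06, Pcgf6KO spots -2.66 ± 0.06 and those of the flag-labelled array -2.60 ± 0.09 (SD over 10 spots, which covers spotting and not the culture). In wildtype the lowest, median and highest spots lay at -3.01, -2.92 and -2.80. Those in Pcgf6KO lay at -2.75, -2.66 and -2.55, so the spots of these 2 arrays did not overlap, although the means differed by only 0.27. Spots on the flag-labelled array, at -2.71, -2.57 and -2.43, overlapped those in Pcgf6KO. The difference between wildtype and Pcgf6KO was thus beyond the spread of spots, which does not cover labelling, hybridization or scaling. It ran from 0.21 to 0.40 under other processing, and differences between cultures of 1 genotype were not measured.

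Of the antagonists, Lefty1 and Lefty2 encode secreted inhibitors of Nodal that are themselves Nodal targets. Lefty1 (NM_010094) had levels of 2.73, 2.42 and 2.37 and Lefty2 (NM_177099) of 3.04, 3.03 and 3.07 on the wildtype, Pcgf6KO and flag-labelled arrays. Lefty1 was thus 1.24-fold and 1.29-fold lower than wildtype on the edited arrays, which differed from each other by less than the spot spread. Lefty2 differed by at most 0.04 in size between any 2 arrays, also within that spread, and the sign of its differences changed with the scaling. The 2 genes are close relatives, and because the probes' sequences were not used here, reading across them was not tested. F10 and Nagk lay nearest to Lefty1, at distances of 0.0087 and 0.011.

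Fst encodes follistatin, which binds and neutralises activins. Wildtype read 0.70, Pcgf6KO 0.10 and the flag-labelled array -1.18, well above background on all 3. It was 1.52-fold lower in Pcgf6KO than in wildtype, under the threshold, and then 2.43-fold lower again. Fst and Inhba, which encodes a subunit of its target, therefore had the same order of arrays, and Fst differed by -1.89 between the flag-labelled array and wildtype.

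Grem1, encoding the BMP antagonist Gremlin 1, had processed signals of 2626 in wildtype, 216 in Pcgf6KO and 79.5 on the flag-labelled array, the last not well above background. These are levels of -0.58, -4.31 and -5.86. Counted in the same way as for Inhba, 30 of 15879 genes had a lower difference between Pcgf6KO and wildtype. The step from Pcgf6KO to the flag-labelled array, a bound of -1.17, fell short of 2-fold with normexp, at -0.86. Inhba and Grem1 could not be given nearest genes, because neither was measured on all 3 arrays.

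Tgfbi encodes a secreted matrix protein induced by TGF-beta. Wildtype read -0.41, Pcgf6KO 0.55 and the flag-labelled array -2.63. Pcgf6KO was thus 1.94-fold above wildtype, just under the threshold, and passed it, with 1.09, when the arrays were not scaled. The flag-labelled array was the lowest, 9.05-fold below Pcgf6KO. Among the 10 genes, each taken by its brightest probe, Tgfbi and Tgfb1 were the members beyond 2 SDs of repeated spots above wildtype in Pcgf6KO. They had opposite positions on the flag-labelled array, -2.22 and 0.33 against wildtype. The dimmer Bmp4 probe was also beyond that spread in Pcgf6KO, at 0.67.

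**Figure D2:**
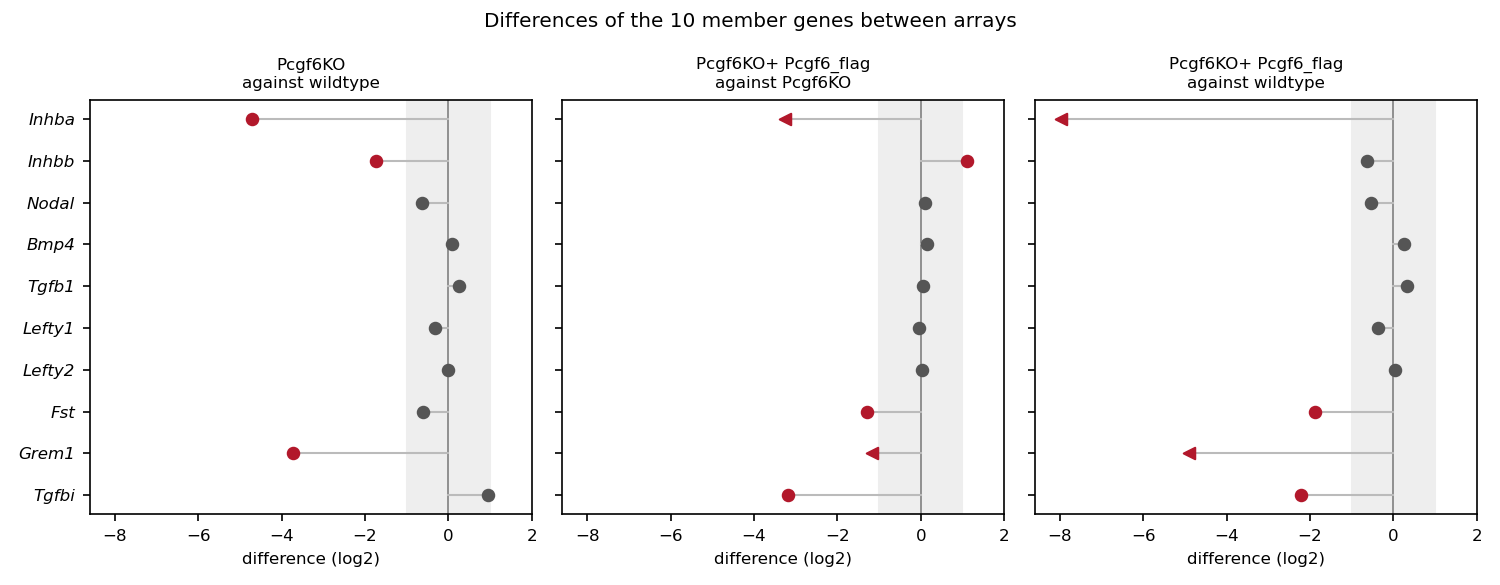
Difference of each gene between arrays, in log2 units, for Pcgf6KO against wildtype, the flag-labelled array against Pcgf6KO and the flag-labelled array against wildtype. Circles were measured on both arrays, arrowheads are bounds, the grey band is less than 2-fold and red marks at least 2-fold. Inhba reaches -4.71, -3.26 and -7.97, while Nodal, Bmp4, Tgfb1, Lefty1 and Lefty2 lie inside the band in all 3 panels.

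Markers of stem cells and of fibroblasts were read on the same arrays. All 23 stem cell markers on the array were well above background on each of the 3 arrays, and the label's cell type was used, although muscle is given as the source. Their summed signal, in multiples of each array's 75th percentile, was 231 on the wildtype array, 202 on the Pcgf6KO array and 234 on the flag-labelled array. In Pcgf6KO against wildtype 0 of 23 passed 2-fold in either direction, where 10.2% of all genes did. The median was -0.20, with the extremes 0.71 for Prdm14 and -0.68 for Nr0b1, regulators of the pluripotent state. Tbx3 and Fgf4, a transcription factor and a growth factor of stem cells, differed by 0.50 and -0.52. Prdm14 alone passed 2-fold on the flag-labelled array against wildtype, with 1.66, where 12.1% of all genes did.

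Fibroblast markers differed far more. Of 34 on the array, 33 were well above background in wildtype, 29 in Pcgf6KO and 22 on the flag-labelled array, and their summed signal was 121, 69.3 and 52.9. The lowest signal well above background was 52.7, 53.4 and 103 on these arrays, so the 22 were counted at a higher limit. Col6a2 was not among the 22, although its levels in Pcgf6KO and on the flag-labelled array were -5.80 and -5.86. Against wildtype 18 of 33 were at least 2-fold lower in Pcgf6KO and 27 of 33 on the flag-labelled array, and 0 were higher in either. Over all genes 3.56% were lower in Pcgf6KO and 6.28% on the flag-labelled array. Among the 29 measured on both arrays, Mgp, an inhibitor of calcification, and the collagen cross-linking enzyme Lox were lowest in Pcgf6KO with -7.00 and -4.04. Col5a2, a fibrillar collagen, was highest with 0.98, followed by the protease gene Mmp2 with 0.29. Lum was not well above background on any array, and Bgn, Fap, Postn and Prrx1 were so only in wildtype. In bulk RNA fewer fibroblasts and less RNA per fibroblast cannot be told apart.

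Inhba and Grem1 were low on the same arrays as these markers. In Pcgf6KO against wildtype Inhba was lower than 28 and Grem1 than 26 of the 29 fibroblast markers measured on both arrays, and both were lower than all 23 stem cell markers. Against wildtype on the flag-labelled array, the bound of Inhba lay below all 22 fibroblast markers measured on both arrays and that of Grem1 below 21. Markers that were themselves bounds have no known order against these genes. The part of feeder RNA in these differences was not tested. In the same comparison Tgfbi and Fst each lay near the middle of the fibroblast range, with at least 18 of 33 markers lower. Tgfbi was however higher than 32 of 33 of those markers in Pcgf6KO, whereas Fst, with -0.61, was inside the range of both lists.

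Bmp4 by its brighter probe, Tgfb1 and Lefty2 lay inside the stem cell marker range in all 3 comparisons. From Pcgf6KO to the flag-labelled array the dimmer Bmp4 probe, at -0.54, lay below the lowest stem cell marker, at -0.12. Nodal and Lefty1 lay inside the stem cell range in Pcgf6KO against wildtype, where 1 and 7 of 23 markers were lower, and in the comparison of the 2 edited arrays. On the flag-labelled array against wildtype, however, both were below all 23 stem cell markers, whose lowest value was -0.30, compared with -0.53 and -0.36. Inhbb lay below all stem cell markers in both comparisons with wildtype and above all of them, and all 29 fibroblast markers, from Pcgf6KO to the flag-labelled array. The ranges are wide, since all 10 genes lay inside that of the fibroblast markers in Pcgf6KO against wildtype, so a place inside a range does not assign a source.

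**Figure D3:**
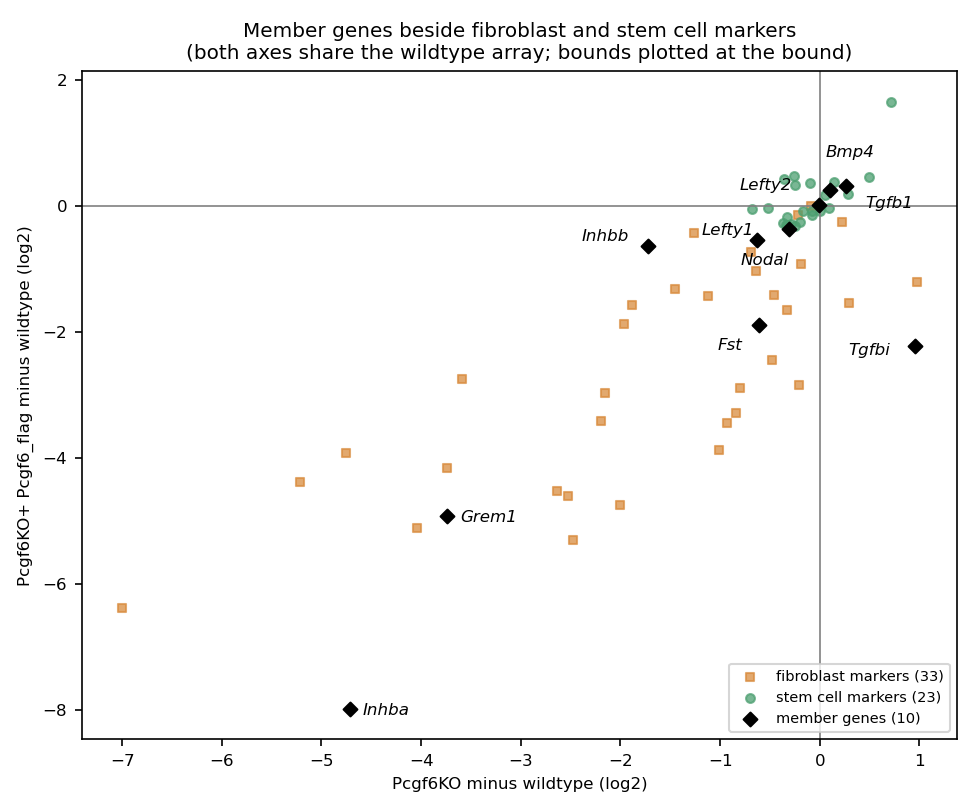
Differences from wildtype in Pcgf6KO (horizontal) and on the flag-labelled array (vertical), in log2 units, for the 10 genes (diamonds), 33 fibroblast markers (squares) and 23 stem cell markers (circles), with bounds plotted at the bound. Both axes contain the wildtype array. Inhba and Grem1 lie at the lower left among and beyond the fibroblast markers, Bmp4, Tgfb1 and Lefty2 lie among the stem cell markers, and Inhbb, with -1.72 and -0.62, lies below the stem cell markers on both axes.

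Other ligands of the family were read next. Of 20 tested in Pcgf6KO against wildtype, 5 were at least 2-fold higher and 2 lower, where 6.60% and 3.56% of all genes were, with a median of -0.17 over those measured on both arrays. Bmp6 and Bmp2, both osteogenic BMP ligands, were higher by 2.42 and 1.69. Tgfb3, a TGF-beta ligand, was lower by -2.93 and Inhbc, an activin subunit of liver, by -1.38. Between Pcgf6KO and the flag-labelled array, 7 of 20 were higher on the latter, or 3 with normexp, and 6 lower, with Bmp6 and Bmp2 at -2.38 and -2.58 and Tgfb3 at -1.14. Tgfb3 was, like Grem1, low on both edited arrays, at -4.07 from wildtype on the flag-labelled array. Gdf3, a Nodal-related ligand of stem cells, differed by -0.17 and then 0.10.

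Further secreted antagonists and binding proteins were read on the same arrays. In Pcgf6KO against wildtype 4 of 17 were at least 2-fold lower and 2 higher, where 3.56% and 6.60% of all genes were, and without a filter on dim probes 4 of 18 were lower and 4 higher. Against wildtype on the flag-labelled array 6 of 15 were lower and 0 higher, where 6.28% and 5.83% of all genes were. Ltbp2, a latent TGF-beta binding family protein of elastic matrix, and Nbl1, a BMP antagonist, were lowest among those measured on both arrays, at -3.50 and -1.17. Chrdl1, a BMP antagonist, was highest with 2.13, and Sostdc1, another, followed with 0.74.

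Receptors differed in both directions and Smads by less than 2-fold. Of 15 receptors and co-receptors 2 were higher and 2 lower in Pcgf6KO than in wildtype, where 6.60% and 3.56% of all genes were. With normexp, quantile normalization or median scaling 1 was higher. The BMP receptors Bmpr1b and Bmpr2 were higher by 1.28 and 1.0, and Amhr2, the anti-Mullerian hormone receptor, and Cfc1, a Nodal co-receptor, were lower by -1.42 and -1.36. All 4 then differed the other way on the flag-labelled array, with -1.33, -1.17, 1.52 and 2.0 against Pcgf6KO, a comparison that contains the same Pcgf6KO array. Tdgf1, the Nodal co-receptor Cripto, differed by -0.24 and -0.06. Of 16 Smads and partners tested none passed 2-fold in Pcgf6KO against wildtype, where 10.2% of all genes did. The largest differences were -0.99 for the co-repressor Ski and 0.67 for the ubiquitin ligase Smurf2. Furin, a protease that processes Nodal, differed by -0.31, Pcsk6, another, by 0.02, the inhibitory Smad6 by 0.62 and Smad7 by -0.20.

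Target genes gave a further view. Of 6 BMP targets measured in Pcgf6KO and wildtype, 3 were at least 2-fold higher and none lower, where 6.60% of all genes were higher. Msx1 and Msx2, homeobox genes, were higher by 1.36 and 1.35 and Id4 by 1.25, while Id1 and Id2, inhibitors of differentiation, differed by 0.35 and 0.53. All 6 were above 0 and the list median was 0.93. Bmp4 differed by 0.10 with its brighter probe and by 0.67 with its dimmer probe. Msx1 and Msx2 on the flag-labelled array were below Pcgf6KO by -1.38 and -1.58, a comparison that contains the same Pcgf6KO array. Bambi was not well above background on any array. Id3 was left out with the outlier spots. With those spots kept, 7 targets were measured in Pcgf6KO and wildtype. All 7 were above 0, with a median of 0.62, and 3 were at least 2-fold higher in Pcgf6KO.

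Of 8 Nodal and activin targets 1 was higher in Pcgf6KO and none lower, where 6.60% and 3.56% of all genes were. With normexp 0 were higher, and with the mean over probes 2 were higher and 1 lower. T, the brachyury gene, differed by 1.07, Gsc by 0.69, the co-repressor gene Skil by -0.26 and the endoderm factor Foxa2 by -0.79. Among 9 TGF-beta target genes of fibroblasts 4 were lower in Pcgf6KO and 5 on the flag-labelled array, with 0 higher in either. Over all genes 3.56% and 6.28% were lower in these comparisons with wildtype. Acta2, smooth muscle actin, was lower by -2.63 in Pcgf6KO, and Tagln, an actin-binding protein gene, differed by -0.18. This list shares 4 genes with the 35 fibroblast markers, so the lists are not independent of each other. Other lists share genes too. Of the Nodal and activin targets, T, Gsc, Eomes and Mixl1 are also mesendoderm markers and Foxa2 is also an endoderm marker.

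**Figure D4:**
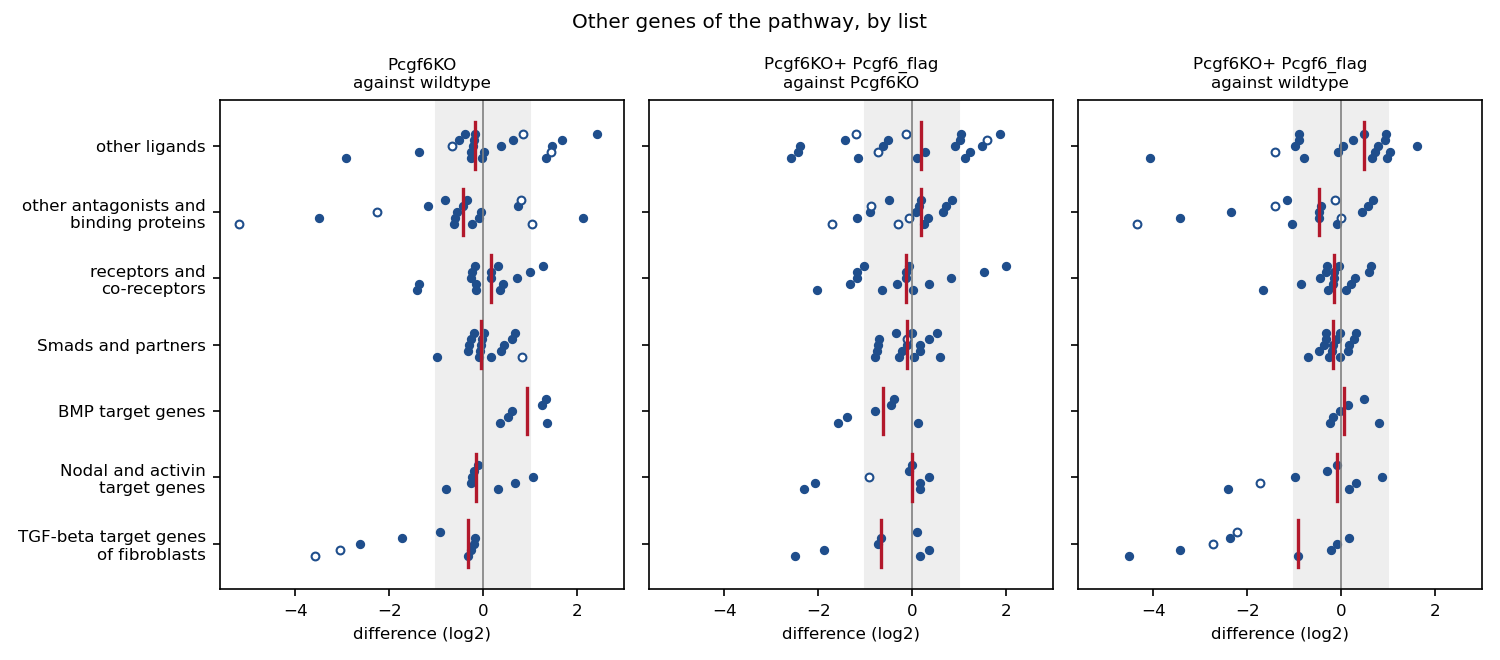
Differences of other pathway genes in the 3 comparisons, in log2 units, 1 point per gene and a red bar at the median of genes measured on both arrays. Open points are bounds or have no fold, and the grey band is less than 2-fold. The 6 BMP target genes shown lie above 0 in Pcgf6KO against wildtype, with a median of 0.93. Smads and partners lie inside the band in all 3 panels.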

How the data were processed

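The deposited values are linear spot intensities. Per the file headers they came from Agilent Feature Extraction 11.5.1.1, whereas the submitters' processing notes name version 10.7. The deposited value table held the same processed intensity for 55249 of 55249 single-spot probes per array, within a relative tolerance of 1e-06, so it is unscaled and uncentred. Its column medians were 243, 273 and 313. Control spots and 141 to 192 outlier spots per array were left out, and no spot was saturated.

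Log2 signals of a probe's spots were averaged and scaled to each array's 75th percentile. Matching accessions to RefSeq (GRCm38.p6) gave 26762 of 55681 probes a gene name, and each gene's brightest probe was used. Measured means that most spots of the probe were well above background. The spread of repeated spots came from probes with at least 5 spots, compared at the same array positions. The 12 gene lists held 199 entries. From each, up to 4 genes were named, the 2 highest and 2 lowest in Pcgf6KO against wildtype, with Pcgf6, 5 genes of Nodal signalling and the 2 nearest genes of 4 members. Not every gene taken by this rule is reported here. The genes and lists were chosen with earlier results of these data known. Calls were tested on simulated data. Alternatives were normexp (offset 50, limma 3.58.1 in R 4.3.3), quantile normalization, other scalings, the deposited table, no filter or a stricter one on dim probes, averaging over probes, keeping outlier spots, and 1.5-fold or 3-fold thresholds. The unscaled table was added after the data were seen. normexp used the median spot signal. Python 3.11.15, numpy 2.4.6, pandas 2.3.3 and matplotlib 3.10.9 were used.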

Additional observations from a re-analysis of the deposited data

How the results depend on the processing

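No paired analysis was possible because each group has 1 array, and a block for slide could not be fitted with a single array on slide 2. The numbers of the 10 genes called in each comparison stayed within 1.5 times under every normalization, filter and probe rule tried except the unscaled deposited values, which gave 1 higher gene, Tgfbi, in Pcgf6KO against wildtype. At 1.5-fold that comparison gave 1 higher and 5 lower, where 12.9% and 8.51% of all genes passed. At 3-fold the flag-labelled array against Pcgf6KO gave 0 higher and 2 lower, Inhba and Tgfbi, where 1.99% and 4.94% passed. No called difference changed sign under any of these alternatives, while the smaller ones of Lefty1, Lefty2, Bmp4 and Tgfb1 did under at least 1 of them (Bmp4 to -0.19 with the mean over probes). The median of all genes moved by over 0.1 in the unscaled values, to 0.11, 0.13 and 0.22, and to -0.14 for the flag-labelled array against wildtype with median scaling. In that comparison 48.1% of called genes were higher, against 66.0% unscaled. Counts over all genes moved most with the handling of dim probes, which also changes how many genes are tested. Genes higher on the flag-labelled array against Pcgf6KO numbered 973 of 15757, but 1968 of 20274 without the filter and 509 of 13207 among bright genes only. Other list counts and medians moved too: fibroblast markers lower in Pcgf6KO numbered 11 to 18, TGF-beta targets of fibroblasts lower there 2 to 4, other antagonists higher there 0 to 4, mesendoderm markers higher there 1 to 4 and BMP targets higher there 3 under each alternative. The median of the BMP targets in Pcgf6KO against wildtype ran from 0.62 to 1.07. Nodal and activin targets higher in Pcgf6KO numbered 0 to 2 and lower 0 to 1. Between Pcgf6KO and the flag-labelled array, other ligands higher on the latter numbered 3 to 8 and endoderm markers lower 3 to 8, and the medians of Smads and of receptors changed sign in the unscaled values for the flag-labelled array against wildtype. The higher background of the flag-labelled array limits how low Inhba and Grem1 can be read there.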

Other observations

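Markers of lineages that TGF-beta family signals pattern in the embryo were read on the same arrays. Of 10 mesendoderm and streak markers tested, 3 were at least 2-fold higher in Pcgf6KO than in wildtype and 0 lower, where 6.60% and 3.56% of all genes were. With normexp 1 was higher. Wnt3, a streak Wnt ligand, differed by 2.02. On the flag-labelled array against Pcgf6KO 2 were higher and 3 lower, with Wnt3 at -3.16 and T at -2.06. Evx1, a homeobox gene, was lowest in Pcgf6KO against wildtype with -0.53.

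Among 12 primitive and visceral endoderm markers 3 were higher in Pcgf6KO and 1 lower, where 6.60% and 3.56% of all genes were. Afp, alpha-fetoprotein, was higher by 2.72 and Dab2, an endocytic adaptor, by 1.26, while Cubn, an endocytic receptor, was lower by -1.88 and Gata4 differed by -0.86. On the flag-labelled array against Pcgf6KO 4 of 12 were lower and 0 higher, with Dab2 at -3.47, beside -3.18 for Tgfbi. Of 9 trophoblast markers 1, Hand1 with 1.48, was higher in Pcgf6KO and 0 lower, where 6.60% and 3.56% of all genes were. Krt7 differed by 0.82, Plet1 by 0.19 and Ascl2 by -0.04. On the flag-labelled array against Pcgf6KO 5 of 10 were lower, Hand1 with -1.48 among them, and 1 was higher. Whether cells of these lineages were present in the cultures was not tested.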
